A study of Homo sapiens with 6 samples.

Results

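The 8 mature miRNAs hsa-miR-223-3p, hsa-miR-223-5p, hsa-miR-146a-5p, hsa-miR-146b-5p, hsa-miR-146b-3p, hsa-miR-142-5p, hsa-miR-142-3p and hsa-miR-155-5p belong to the miR-223, miR-146, miR-142 and miR-155 families, which are known from myeloid and other immune cells. They were followed in small RNA sequencing of K562 cells and taken by name (written below without the species prefix), and all 8 were among the 2656 miRNAs of the deposited count table. K562 is a human leukaemia line, labelled as a myeloblast. The parental, azacitidine-sensitive form was compared with a resistant form that had been grown under rising azacitidine for months, with 3 libraries labelled as biological replicates in each group. Both forms were cultured in RPMI medium with serum, penicillin and streptomycin. Whether the drug was still present at harvest is not stated, the letters NT at the end of every library name are not explained, and no separate selections of resistant cells are named. A p-value therefore covers the spread between libraries.

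A miRNA hairpin is cut into a duplex with a 5p and a 3p arm, and the arm that is loaded into an Argonaute protein pairs with target transcripts mainly through its seed, bases 2 to 8. miR-223 is abundant in granulocytes and monocytes and limits granulocyte progenitor growth. miR-146a is induced by NF-kappaB and represses the signalling proteins TRAF6 and IRAK1, which closes a negative feedback loop. miR-146b comes from another locus, and its 5p arm has the same seed. miR-142 is made in nearly all blood lineages, and miR-155, made from the MIR155HG transcript, is induced in activated myeloid and lymphoid cells and is oncogenic in lymphomas.

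The mature sequences are shown because they set which members can share targets and which reads can be told apart. They were taken from RefSeq (GRCh38.p14), where all 8 names matched, and are written 5′ to 3′ with the seed in capitals.
miR-223-3p: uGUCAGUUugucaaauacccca
miR-223-5p: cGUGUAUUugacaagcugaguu
miR-146a-5p: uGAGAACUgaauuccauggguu
miR-146b-5p: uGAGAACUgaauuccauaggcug
miR-146b-3p: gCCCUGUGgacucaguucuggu
miR-142-5p: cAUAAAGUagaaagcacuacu
miR-142-3p: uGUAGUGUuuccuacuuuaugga
miR-155-5p: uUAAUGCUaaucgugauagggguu

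The members with a common seed were miR-146a-5p and miR-146b-5p (GAGAACU). Their first 17 bases were identical, and over the 22 bases compared they differed by G18A and U21C (miR-146a-5p base first, positions from the 5′ end). A read ending at or before base 17 cannot be assigned to one of them, so values of miR-146a-5p and miR-146b-5p are uncertain to the extent that the counting, which is not described, split such reads. Among other RefSeq miRNAs, miR-7153-5p carried the seed of the miR-146 pair and miR-5590-3p that of miR-142-5p, and both had 0 counts in all 6 libraries.

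The 8 members come from 5 hairpins (GRCh38). MIR223 is on chromosome X, plus strand, at 66018870 to 66018979, in an exon of a long non-coding transcript that RefSeq names MIR223HG. MIR142 is on chromosome 17, minus strand, at 58331232 to 58331318, in an exon of the transcript RefSeq names MIR142HG and, on the other strand, in an intron of TSPOAP1-AS1. MIR146A is on chromosome 5, plus strand, at 160485352 to 160485450, in an exon of MIR3142HG. MIR146B is on chromosome 10, plus strand, at 102436512 to 102436584 and overlapped no other GENCODE gene. The arms of MIR155 lie on the plus strand of chromosome 21 between 25573983 and 25574043, in an exon of MIR155HG.

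Library totals ran from 3291500 counts (resistant replicate 3) to 12563945 counts (sensitive replicate 1). Levels are CPM (counts relative to library size, on the usual CPM scale), with library sizes scaled by trimmed mean of M values (TMM) factors, and 768 miRNAs passed the filter on low counts. Resistant replicate 3 stood apart. Its log2 CPM correlated with those of resistant replicates 1 and 2 at r = 0.875 and 0.864, against 0.995 between these (Pearson, across miRNAs, which are not independent). Each comparison is therefore given with all 6 libraries and without that library. The erythroid miRNA miR-451a, which is typical of the red cell lineage, was present, at 272 ± 76.0 CPM (SD, n = 3) in the sensitive form and 141 ± 78.3 CPM (SD, n = 3) in the resistant form, so that the libraries held erythroid as well as myeloid miRNAs.

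Of the 8 members, 7 were expressed well above the filter and miR-155-5p was nearly absent. In sensitive cells miR-146b-5p was the 8th most abundant of all miRNAs in each library. Of a sensitive library's counts, the 8 members together held 3.71 ± 0.0986% (SD, n = 3). They held 2.98% and 2.85% in the first 2 resistant replicates and 0.461% in the third. miR-146b-5p alone gave 62.0% to 67.0% of the members' counts in sensitive and 50.8% to 62.9% in resistant libraries. By mean CPM in sensitive cells the order was miR-146b-5p, miR-142-3p, miR-142-5p, miR-223-3p, miR-146b-3p, miR-223-5p, miR-146a-5p and miR-155-5p. The neighbours miR-142-5p and miR-223-3p overlapped between libraries in this order, and no other neighbours did. Each count is a read of an RNA of 21 to 24 bases, so no length scaling was applied, but ligation preferences of single miRNAs enter such a ranking.

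**Figure D1:**
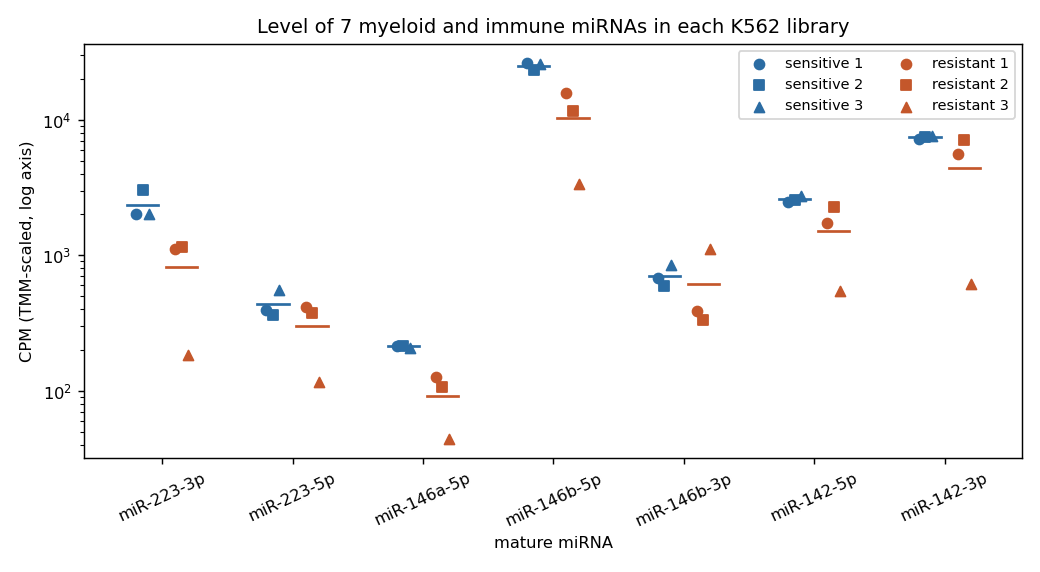
CPM (log axis) of the 7 members that passed the filter, 1 point per library and a bar at each group mean; blue is sensitive and orange resistant, with the replicate shown by the symbol. Resistant replicate 3 (orange triangle) is the lowest library for 6 of the 7 and the highest for miR-146b-3p, at 1117 CPM.

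With all 6 libraries, 0 of the 7 tested members passed edgeR's quasi-likelihood test at an adjusted p of 0.05, where 4.17% of all 768 tested miRNAs passed. At an unadjusted p under 0.05, 1 member was found with edgeR (miR-146a-5p), against 26.7% of all tested, and 3 each with DESeq2 (34.5% of all tested) and limma-voom (24.9%). Neither called a member after adjustment, where DESeq2 called 19.4% and limma-voom 5.21% of all tested. All 7 log2 fold changes were negative (median -0.77, against -0.11 over all tested, of which 53.8% were negative). Without resistant replicate 3, 4 of the 7 fell and 0 rose, where 28.1% of 822 tested miRNAs passed and 14.4% were lower. The 4 were miR-223-3p, miR-146a-5p, miR-146b-5p and miR-146b-3p. They are not independent, since miR-146b-5p and miR-146b-3p share a hairpin and short reads of miR-146a-5p and miR-146b-5p cannot be told apart. In bulk RNA, fewer cells with a miRNA and less of it per cell cannot be told apart. The members' median log2 fold change was then -0.82, against 0.04 over all tested. When the same 5 libraries were scaled by their totals alone, 2 of the 7 fell. They were miR-223-3p (log2 fold change -0.71, adjusted p = 0.0379 by edgeR) and miR-146b-5p (-0.53, adjusted p = 0.0480 by edgeR). Of all 822 tested, 29.7% passed in either direction, 65 of them lower and 179 higher. That scaling moved the median of all tested miRNAs by 0.29, and miR-146a-5p (edgeR adjusted p = 0.0806) and miR-146b-3p (edgeR adjusted p = 0.0513) missed the threshold. Relative to the median of all tested, these members lay at -1.03, -0.85, -0.86 and -0.96 with either scaling (miR-223-3p, miR-146b-5p, miR-146a-5p and miR-146b-3p). A change of scaling moves all miRNAs by nearly the same amount, so these distances could hardly differ and add no support. With all 6 libraries and limma-voom quality weights, which weigh down libraries that scatter more, the 4 members fell too. Of all 768 tested, 42.1% passed in either direction there, 175 of them lower and 148 higher.

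**Figure D2:**
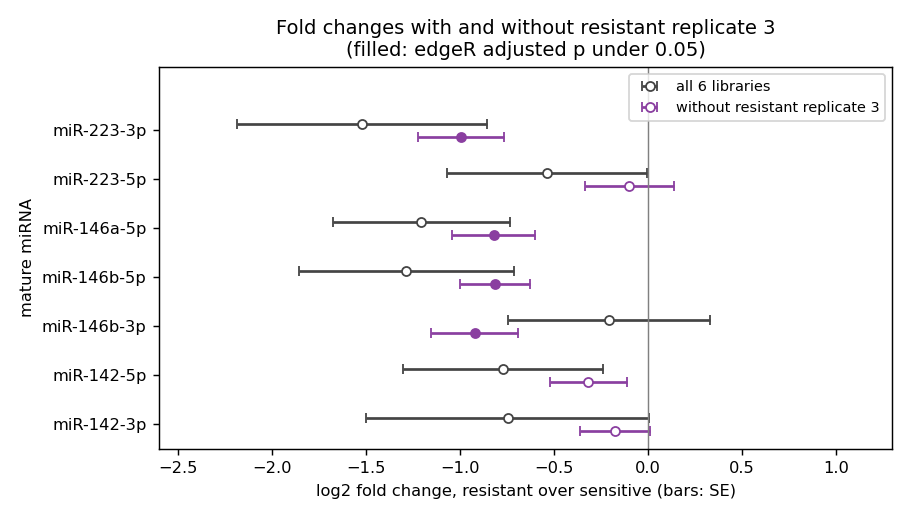
Log2 fold changes of the 7 tested members, resistant over sensitive, with SE as bars, from all 6 libraries (grey) and without resistant replicate 3 (purple); filled points passed an edgeR adjusted p of 0.05. No grey point is filled, and the purple points of miR-223-3p, miR-146a-5p, miR-146b-5p and miR-146b-3p are, between -0.82 and -0.99.

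miR-223-3p, the main arm of the granulocyte miRNA, had 2021, 3026 and 2000 CPM in sensitive replicates 1 to 3 and 1111, 1158 and 185 CPM in resistant replicates 1 to 3. All resistant libraries lay below all sensitive ones, and resistant replicate 3 was far below the other resistant libraries. The log2 fold change was -1.52 (SE 0.66; adjusted p = 0.188 by edgeR) with all libraries. It fell 1.99-fold when resistant replicate 3 was left out (log2 fold change -0.99, SE 0.23; adjusted p = 0.00733 by edgeR). Its rank among all miRNAs was 51 to 64 in sensitive libraries, 81 and 79 in resistant replicates 1 and 2 and 179 in resistant replicate 3.

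miR-223-5p, the other arm of the hairpin, had 396, 361 and 559 CPM in sensitive and 415, 377 and 116 CPM in resistant libraries. Resistant replicates 1 and 2 lay within the range of the sensitive libraries, and only resistant replicate 3 was below it. The test was not passed with all libraries (log2 fold change -0.54, SE 0.53; adjusted p = 0.537 by edgeR) or without resistant replicate 3 (-0.10, SE 0.24; adjusted p = 0.807 by edgeR).

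Both arms come from the MIR223 hairpin, printed here because the shares of its arms did not overlap between the groups. It is written 5′ to 3′ with the 5p arm (first) and the 3p arm (second) in capitals.
MIR223: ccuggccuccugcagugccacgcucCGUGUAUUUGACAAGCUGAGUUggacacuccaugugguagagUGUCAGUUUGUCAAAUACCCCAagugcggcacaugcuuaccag
The 5p arm gave 16.4%, 10.7% and 21.8% of the hairpin's counts in sensitive and 27.2%, 24.5% and 38.5% in resistant libraries. This share does not depend on how libraries are scaled. It was higher in each resistant library than in any sensitive one, by 13.8 percentage points on average, or 9.56 without resistant replicate 3. The exact two-sided permutation test gave p = 0.1, the smallest it can give with 3 libraries against 3 (0.4 adjusted over the 4 shares tested). Of 205 hairpins with both arms tested, 23.9% had shares of the 5p arm that did not overlap between the groups, so this was not unusual in these libraries. The sensitive libraries also differed among themselves, with exact 95% intervals of 10.3% to 11.0% in replicate 2 and 21.2% to 22.5% in replicate 3, which cover counting error only.

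miR-146b-5p, the most abundant member, had 26268, 23230 and 25661 CPM in sensitive and 15861, 11641 and 3328 CPM in resistant libraries. The groups did not overlap. The log2 fold change was -1.29 (SE 0.57; adjusted p = 0.194 by edgeR). It fell 1.76-fold once resistant replicate 3 was left out (-0.82, SE 0.19; adjusted p = 0.00701 by edgeR). Its rank went from 8 in each sensitive library to 11 in resistant replicates 1 and 2 and 40 in resistant replicate 3.

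miR-146b-3p, the minor arm, had 678, 593 and 846 CPM in sensitive and 388, 331 and 1117 CPM in resistant libraries. Resistant replicates 1 and 2 lay below every sensitive library, while resistant replicate 3 lay above them all. The log2 fold change was -0.21 (SE 0.54; adjusted p = 0.805 by edgeR) with all libraries. Its sign turned with RLE factors, another scaling (0.0095), but not with library totals alone (-0.22). miR-146b-3p fell 1.90-fold when resistant replicate 3 was left out (-0.92, SE 0.23; adjusted p = 0.0108 by edgeR).

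The MIR146B hairpin is shown with its arms in capitals, 5p first, because both arms fell to a like degree once that library was left out.
MIR146B: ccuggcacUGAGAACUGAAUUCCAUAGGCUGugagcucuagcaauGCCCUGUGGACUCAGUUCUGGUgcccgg
The 5p share was 97.5%, 97.5% and 96.8% in the sensitive and 97.6%, 97.2% and 74.9% in the resistant libraries. The first 2 resistant libraries lay within 1 percentage point of the sensitive ones, and resistant replicate 3 was lower (exact 95% interval 74.1% to 75.7%). The difference of group means was -7.36 percentage points with all libraries (exact permutation p = 0.7) and 0.155 without resistant replicate 3 (exact permutation p = 0.8, where 0.2 is the smallest possible).

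miR-146a-5p was much scarcer, at 215, 216 and 208 CPM in sensitive and 126, 106 and 44.0 CPM in resistant libraries. The sensitive libraries were within a narrow range and every resistant library lay below them. Its log2 fold change was -1.21 (SE 0.47, adjusted p = 0.164 and unadjusted p = 0.0335 by edgeR). It fell 1.77-fold once resistant replicate 3 was left out (-0.82, SE 0.22; adjusted p = 0.0152 by edgeR).

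The ratio of miR-146b-5p to miR-146a-5p counts was 122, 108 and 123 in sensitive libraries, 126 and 109 in resistant replicates 1 and 2, and 75.6 in resistant replicate 3. Only resistant replicate 3 lay outside the sensitive libraries by a wide margin. miR-146b-5p made up 99.19%, 99.08% and 99.20% of both together in sensitive and 99.21%, 99.09% and 98.70% in resistant libraries, and the difference of group means was -0.154 percentage points (exact permutation p = 0.7). The other arm of the miR-146a hairpin, miR-146a-3p, had 1 count in resistant replicate 1 and 0 in the other libraries. Whether reads of miR-146b-5p entered the count of miR-146a-5p was not tested.

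miR-142-3p had 7168, 7474 and 7558 CPM in sensitive and 5578, 7041 and 615 CPM in resistant libraries. On this TMM scale resistant replicate 2 lay just under the lowest sensitive library, while as a share of library totals (0.877%) it lay above all of them (0.685% to 0.722%). By CPM, resistant replicate 3 was more than an order of magnitude below the sensitive ones. The test was not passed with all libraries (log2 fold change -0.75, SE 0.75; adjusted p = 0.543 by edgeR) or without resistant replicate 3 (-0.17, SE 0.19; adjusted p = 0.546 by edgeR).

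miR-142-5p had 2459, 2554 and 2756 CPM in sensitive and 1734, 2268 and 550 CPM in resistant libraries. The groups were apart on this scale, but as a share of library totals resistant replicate 2 (0.282%) lay above every sensitive library (0.235% to 0.263%). Its log2 fold change was -0.77 (SE 0.53; adjusted p = 0.369 by edgeR), or -0.32 in the fit that lacked resistant replicate 3 (SE 0.20; adjusted p = 0.283 by edgeR). The 5p share of the hairpin was 25.5%, 25.5% and 26.7% in sensitive and 23.7%, 24.4% and 47.2% in resistant libraries. The groups differed by 5.85 percentage points with all libraries (exact permutation p = 1) and by -1.88 without resistant replicate 3 (exact permutation p = 0.2, the smallest possible), so that the sign of the difference rested on that library.

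**Figure D3:**
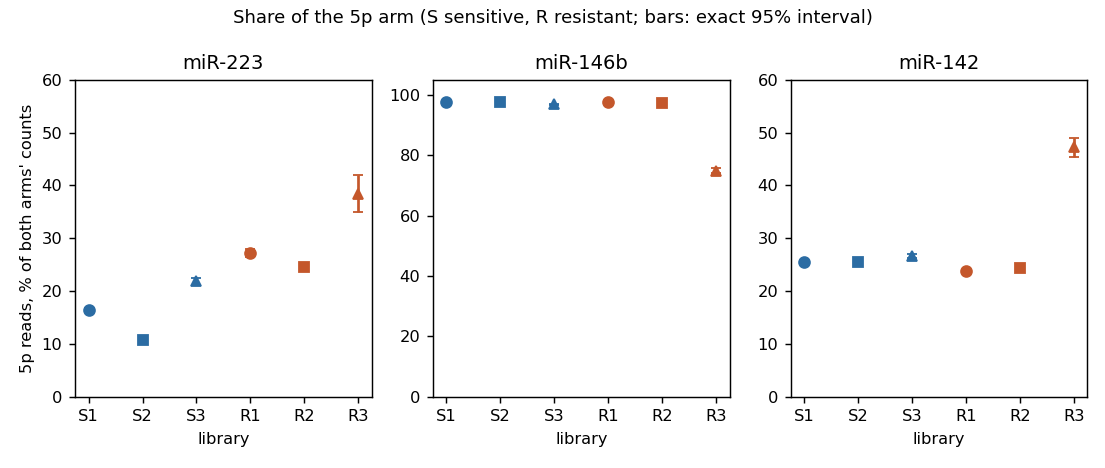
Share of the 5p arm in the counts of both arms of the miR-223, miR-146b and miR-142 hairpins, in percent, for each sensitive (S) and resistant (R) library, with exact 95% intervals as bars. For miR-223 all resistant libraries lie above the sensitive ones, while for miR-146b and miR-142 resistant replicate 3 alone is far from the rest, at 74.9% and 47.2%.

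miR-155-5p did not pass the filter and was not tested. It had 5, 1 and 1 counts in sensitive and 0, 0 and 2 counts in resistant libraries, and the 0 in resistant replicate 1 allows up to 0.305 CPM at a floor of 3 counts. Over the groups this was 7 against 2 counts, a ratio of sensitive to resistant, relative to library totals, of 2.74. Its exact 95% counting interval was 0.522 to 27.0, so no difference was detectable at this depth. The mean CPM leaned the other way, at 0.234 in sensitive and 0.262 in resistant libraries. miR-155-3p had 0 counts in all 6 libraries. The 5p share of this hairpin therefore rests on 9 counts and was not compared.

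Among the 7 tested members, 5 (miR-223-3p, miR-146a-5p, miR-146b-5p and both arms of miR-142) had resistant CPM values entirely below the sensitive ones, where 22.9% of all tested miRNAs did. As a share of library totals, a scale added after seeing the data, 3 did (miR-223-3p, miR-146a-5p and miR-146b-5p), against 15.1% of all tested, and both arms of miR-142 overlapped. Without resistant replicate 3 the arm miR-146b-3p joined on either scale, which made 6 of 7 against 28.1% of all tested by CPM and 4 of 7 against 16.8% by library totals. Members share hairpins, and the members were chosen with earlier results of these data known, so these counts describe the members and are not a test.

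How far resistant replicate 3 departed from the other resistant libraries followed the GC content of a miRNA. Across the 677 tested miRNAs with a RefSeq sequence, its log2 CPM minus the mean of resistant replicates 1 and 2 rose with GC content (Spearman's rho 0.714, as a description across miRNAs of the same libraries). The median of this log2 difference was -1.49 for 360 miRNAs under 50% GC and 0.94 for 317 miRNAs at or above it. The 6 tested members under 50% GC (33.3% to 43.5%) had differences of -1.39 (miR-146a-5p) to -3.35 (miR-142-3p). miR-146b-3p, at 59.1% GC, had a difference of 1.64. GC content was also related to the fold change of resistant over sensitive cells, with a rho of 0.565 over all libraries and 0.334 without resistant replicate 3. With a GC correction chosen after seeing the data and without resistant replicate 3, the 4 members that fell did so again. Their log2 fold changes were -0.85 (miR-223-3p), -0.68 (miR-146a-5p), -0.71 (miR-146b-5p) and -1.24 (miR-146b-3p). Of 729 tested, 27.2% passed in either direction, 109 of them lower and 89 higher.

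**Figure D4:**
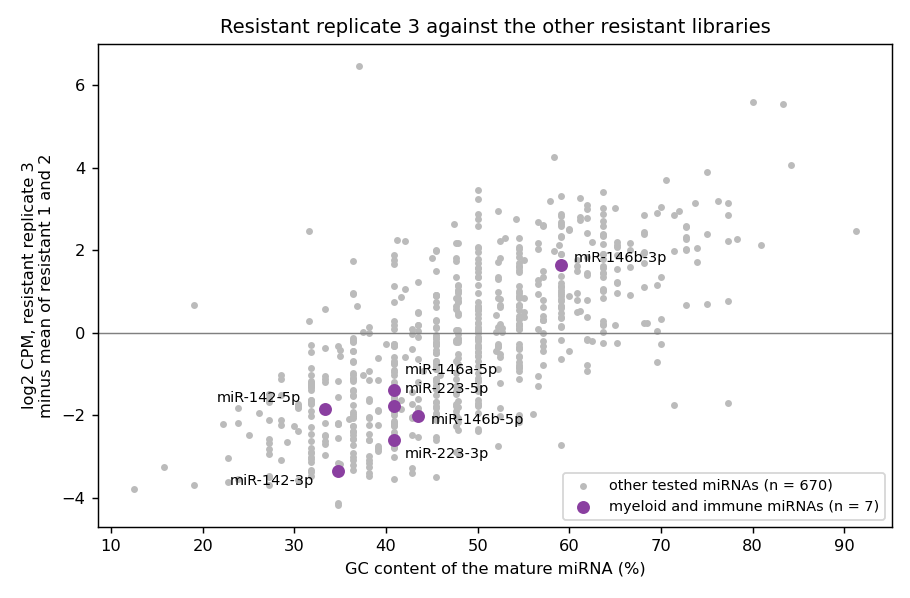
Log2 CPM of resistant replicate 3 minus the mean of resistant replicates 1 and 2, against the GC content of the mature miRNA in percent, for tested miRNAs with a RefSeq sequence (grey) and 7 members (purple). The 6 members under 50% GC lie below 0 and miR-146b-3p, at 59.1% GC, lies at 1.64.

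The miRNAs with the most similar course over the 6 libraries were sought among 462 tested miRNAs that averaged 10 CPM or more, by the mean absolute difference of mean-centred log2 CPM. For miR-223-3p these were miR-889-3p (0.08), miR-548u (0.11) and miR-30b-5p (0.12), where the median over candidates was 0.92. For miR-146b-5p they were miR-548bc (0.15), miR-452-5p (0.15) and miR-495-3p (0.17), where the median was 0.77. miR-146a-5p was also close to miR-146b-5p, at 0.18, while miR-146b-3p, from the same hairpin, was at 1.01. For miR-142-3p they were miR-33a-5p (0.10), miR-1197 (0.12) and miR-32-5p (0.14), where the median was 0.92. The other arm, miR-142-5p, was at 0.39. These courses are shaped by resistant replicate 3, which is 1 of the 6 points.

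Other miRNAs of the same biology were read from lists, against the same background as the members (4.17% of all tested called with all 6 libraries, and 14.4% lower and 13.7% higher without resistant replicate 3). Of 11 tested miRNAs induced by NF-kappaB or toll-like receptors (the list leaves the members out), 0 passed with all 6 libraries in edgeR, with a median log2 fold change of -0.71. Without resistant replicate 3, 4 fell and 0 rose: both arms of miR-9 (log2 fold changes -2.17 for miR-9-5p and -2.20 for miR-9-3p, edgeR adjusted p = 0.000726 and 0.000386) and both arms of miR-21 (-1.33 for miR-21-5p and -1.03 for miR-21-3p, edgeR adjusted p = 8.43e-05 and 0.00948). miR-132-3p, miR-212-3p and miR-147b-3p, which myeloid cells also induce on stimulation, did not pass (-0.16, -0.30 and -0.21).

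Of 10 tested granulocyte and monocyte miRNAs outside the members, 0 passed with all libraries and 2 of 10 fell without resistant replicate 3 (14.4% of all tested were lower), namely miR-340-5p (-0.84, edgeR adjusted p = 0.0125) and miR-29a-3p (-0.99, edgeR adjusted p = 0.00728). The most abundant of them, miR-27a-3p, had a log2 fold change of -0.60 with all libraries (edgeR adjusted p = 0.522). This was -0.13 when resistant replicate 3 was left out (edgeR adjusted p = 0.728). miR-424-5p, which promotes monocyte differentiation, had -0.67 without resistant replicate 3 (edgeR adjusted p = 0.0794). Others went the other way with all libraries, such as miR-328-3p (1.81, edgeR adjusted p = 0.166) and miR-424-3p (1.06, edgeR adjusted p = 0.343). When resistant replicate 3 was left out, miR-328-3p was at 0.55 (edgeR adjusted p = 0.118) and miR-424-3p at -0.05 (edgeR adjusted p = 0.930). The list's median log2 fold change was -0.19 with all libraries, where 7 of the 10 were negative. It was -0.08 without resistant replicate 3, where 6 of the 10 were negative. Of 6 tested lymphocyte miRNAs, 1 fell with all libraries, miR-181a-5p, with a mean of 866 ± 170 CPM (SD, n = 3) in the sensitive and 163 ± 81.8 CPM (SD, n = 3) in the resistant form (log2 fold change -2.42, SE 0.48; adjusted p = 0.0355 by edgeR). In the fit that lacked resistant replicate 3, miR-181a-5p and miR-181b-5p fell (-2.86 and -1.58) and miR-326 rose (0.85, edgeR adjusted p = 0.0244). The lymphocyte miRNA miR-150-5p averaged 0.0618 CPM in the sensitive and 0.394 CPM in the resistant form and was not tested.

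Of 9 tested erythroid and megakaryocyte miRNAs, 0 passed with all libraries and 2 rose without resistant replicate 3, both arms of miR-486 (log2 fold changes 1.05 for miR-486-5p and 0.85 for miR-486-3p, edgeR adjusted p = 0.00218 and 0.0125). Their summed level was 12330 to 16401 CPM in sensitive and 20032 to 69096 CPM in resistant libraries. Of this sum, miR-486-5p alone gave 6215, 6077 and 4744 CPM in sensitive libraries. In resistant libraries miR-486-5p gave 13140, 9582 and 63305 CPM, the last in resistant replicate 3, so the sum mainly follows this miRNA. The defining erythroid miRNAs miR-451a and miR-144-3p did not pass in either fit. Whether the values of the erythroid miRNAs and of the members are related was not tested. Of the 9 liver, muscle and islet miRNAs in the table, 4 were tested and 0 passed in either fit by edgeR. The most abundant of them, miR-375-3p, had a log2 fold change of -0.25 with all libraries (edgeR adjusted p = 0.726). This was -0.45 when resistant replicate 3 was left out (edgeR adjusted p = 0.329). The summed level of the 9 was 95.5 to 220 CPM in sensitive and 113 to 138 CPM in resistant libraries.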

How the data were processed

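The authors deposited read counts per mature miRNA for 6 K562 libraries, as whole numbers with unequal totals and no normalization, per the file headers and values. RNA was isolated with TriPure and DNase-treated and sequenced on a NovaSeq after NEBNext small RNA library preparation, per the labels' protocols. Per the submitters' processing notes the genome build was GRCh38. The sources used here do not give the aligner, the counter or the miRBase release. Reads carry no molecular identifiers, so intervals and floors cover counting error only.

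Counts were analysed in edgeR 4.0.16 (R 4.3.3) with filterByExpr (minimum count 10, minimum total 15), TMM factors and the quasi-likelihood F test. Benjamini-Hochberg adjustment was over all tested miRNAs (threshold 0.05). The fit was also run on simulated counts, which held no library that stood apart and no GC-dependent difference between libraries. That run therefore does not cover the departure of resistant replicate 3. SE is the absolute log2 fold change over the square root of F. limma 3.58.1 and DESeq2 1.42.0 were alternatives. No replicates of a group agreed within sampling noise (chi-square per degree of freedom at least 76.7). Sequences are RefSeq's. The text names all 8 members, their other arms, miRNAs with their seeds, the 3 nearest courses per family, and per list the most abundant and called miRNAs. Other list members, named after their values were seen, are those called without resistant replicate 3, well-known examples and examples of the opposite sign. Members and lists were chosen with earlier results of these data known.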

Additional observations from a re-analysis of the deposited data

How the results depend on the processing

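The number of calls over all miRNAs, 32 with all 6 libraries, was 21 with RLE factors, 162 without a filter, 13 with a minimum mean of 10 CPM, 149 with DESeq2, 323 with limma-voom quality weights and 70 with a GC offset. Library totals alone gave 43 calls, 62.8% of them higher against 50.0% with TMM factors, and moved the median log2 fold change by 0.20. Leaving out 1 library gave 4 to 231 calls, the 231 without resistant replicate 3. In the 5 libraries without it there were 198 calls with the GC offset, 224 with DESeq2, 236 with RLE factors, 244 with library totals and 335 with the replicate block. Settings that combine a change with leaving out resistant replicate 3, and the GC offset, were chosen after seeing the data.

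Calls among the members were 0 under every setting that kept all 6 libraries, other than quality weights (4). Leaving out 1 library gave 0 to 4, and only the fit without resistant replicate 3 gave any. Without that library there were 4 under the GC offset, DESeq2, RLE factors and the replicate block, and 2 under library totals.

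With quality weights the log2 fold changes were -1.01 (miR-223-3p), -0.89 (miR-146a-5p), -0.90 (miR-146b-5p) and -0.89 (miR-146b-3p). Without resistant replicate 3, in the same order, they were -0.85, -0.68, -0.71 and -1.24 with the GC offset, -1.002, -0.83, -0.82 and -0.92 with DESeq2, -1.002, -0.82, -0.82 and -0.92 with RLE factors, and -1.06, -0.83, -0.80 and -0.76 with the replicate block. With library totals they were -0.71 for miR-223-3p and -0.53 for miR-146b-5p, which passed. Leaving out 1 library gave ranges of -1.76 to -0.99 (miR-223-3p), -0.74 to -0.10 (miR-223-5p), -1.40 to -0.82 (miR-146a-5p), -1.65 to -0.82 (miR-146b-5p), -0.92 to 0.38 (miR-146b-3p), -1.05 to -0.32 (miR-142-5p) and -1.17 to -0.17 (miR-142-3p).

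Signs turned for miR-146b-3p, at 0.0095 with RLE factors, 0.080 with a minimum mean of 10 CPM and 0.0096 with DESeq2, and at 0.05, 0.17 and 0.38 without sensitive replicate 3, resistant replicate 1 and resistant replicate 2. The value of miR-142-5p was 0.014 with the GC offset. Without resistant replicate 3, miR-223-5p was at 0.042 with the GC offset, 0.12 with the replicate block and 0.19 with library totals, and miR-142-3p at 0.041 with the GC offset and 0.12 with library totals. The cause was not tested.

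Leaving out 1 library moved the difference of the 5p share, in percentage points, over 9.56 to 16.5 for miR-223, -11.2 to 0.155 for miR-146b and -1.88 to 9.88 for miR-142, and that of the miR-146b share of the pair over -0.260 to -0.00181. The sign for miR-146b and miR-142 turned without resistant replicate 3 (0.155 and -1.88). miR-155-5p entered the unfiltered fit only (log2 fold change -1.12, edgeR adjusted p = 0.669).

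Same-numbered libraries deviated together at r = -0.06, 0.26 and 0.13. Replicates 2 and 3 of each group correlated best with their own number, and replicates 1 did not. These deviations are taken within groups of 3 libraries, and resistant replicate 3 shapes them, so they cannot decide whether the numbers mark pairs. The main fit did not take the numbers as pairs. With the replicate block and all 6 libraries, 23 miRNAs and 0 members were called, and the members' median was -1.24.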
